A study of Drosophila melanogaster with 12 samples.

Results

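Accessible chromatin of Drosophila melanogaster embryos was compared between 2 ATAC-seq libraries labelled M-Z+ dPCIF1 mutant, 0.5-1.5h and 2 libraries labelled wild type for HIRA mutant, 2-3h, which are 4 of the 12 libraries of the series. M-Z+ embryos came from mutant mothers and carried a zygotic copy of dPCIF1 (gene CG11399). The study made null and point-mutant knock-in alleles of this gene with CRISPR/Cas9. It describes its dPCIF1 maternal mutant embryos as made with 2 null alleles and a deficiency line, and its wild-type embryos as w1118. The labels name neither the allele of these libraries nor the wild-type strain. Each library was made from a pool of hand-picked whole embryos, with more embryos per library at 0.5 to 1.5 h than at 2 to 3 h. The other libraries, 2 per group, are wild types for the dPCIF1 mutant at 0.5 to 1.5 h (early dPCIF1 controls), wild types for the HIRA mutant at 0.5 to 1.5 h (early HIRA controls), and M-Z+ HIRA mutants of both stages. These are used to read where else a region was found. Stage, genotype and wild-type set differ together between the compared groups and cannot be told apart. Peaks of both replicates that overlapped by at least 20% of both were merged into regions, which gave 7478 regions in the mutants and 7581 in the 2 to 3 h wild type.

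In the fly the first nuclear divisions run on RNA and protein from the mother, and the zygotic genome is switched on in steps before the embryo forms cells. Zelda and GAGA factor (GAF) are called pioneer factors because they can recognise their motifs while the DNA is still wrapped in nucleosomes. HIRA deposits the histone variant H3.3, and dPCIF1 is the fly homologue of PCIF1, a cap methyltransferase in mammals. In ATAC-seq a transposase cuts DNA that nucleosomes leave free, and a peak is a stretch with more cuts than its surroundings.

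A mutant region was called shared when both 2 to 3 h libraries held a matching peak and mutant-only when neither did, and a 2 to 3 h region was called 2-3 h-only when neither mutant library matched it. The sequences below are the 201 bases around the midpoint of some of the widest regions that carry a motif in that window, with no annotated exon in the window, read 5′ to 3′ on the plus strand of Release 6 (dm6), with the motif or its reverse complement in capitals. They are shown because the motifs differed between the classes. The first pair are mutant-only regions with the GAF motif GAGAGAG, in introns of Tet (chr3L:2823665-2823865), a dioxygenase of the TET family, and haf (chr2L:1559591-1559791).
Tet intron: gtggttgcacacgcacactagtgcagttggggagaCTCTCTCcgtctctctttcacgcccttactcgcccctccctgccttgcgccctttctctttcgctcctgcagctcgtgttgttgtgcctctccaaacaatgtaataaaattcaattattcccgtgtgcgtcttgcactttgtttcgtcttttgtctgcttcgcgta
haf intron: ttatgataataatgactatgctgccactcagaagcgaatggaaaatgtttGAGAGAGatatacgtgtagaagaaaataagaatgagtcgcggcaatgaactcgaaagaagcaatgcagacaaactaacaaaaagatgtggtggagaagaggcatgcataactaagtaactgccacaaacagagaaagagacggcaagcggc
The next 3 are 2-3 h-only regions with the Zelda motif CAGGTAG, in introns of vnd (chrX:592923-593123), a homeobox gene of the ventral neuroectoderm, and CG31457 (chr3R:23129971-23130171), and between genes near D (chr3L:14173286-14173486), a Sox gene of the early embryo.
vnd intron: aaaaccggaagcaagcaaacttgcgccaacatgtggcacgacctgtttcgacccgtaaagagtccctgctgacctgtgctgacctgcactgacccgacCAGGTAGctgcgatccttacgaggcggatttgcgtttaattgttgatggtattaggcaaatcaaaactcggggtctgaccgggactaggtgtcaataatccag
CG31457 intron: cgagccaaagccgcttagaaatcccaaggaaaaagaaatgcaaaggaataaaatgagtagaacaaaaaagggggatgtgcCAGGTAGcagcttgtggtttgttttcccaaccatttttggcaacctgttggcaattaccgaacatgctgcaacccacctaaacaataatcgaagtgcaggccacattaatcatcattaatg
D intergenic: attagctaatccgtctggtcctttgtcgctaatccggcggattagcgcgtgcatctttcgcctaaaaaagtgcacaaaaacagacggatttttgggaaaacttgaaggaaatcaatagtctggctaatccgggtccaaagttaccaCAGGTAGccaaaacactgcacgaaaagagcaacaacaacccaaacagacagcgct
The last pair carry the GAF motif in shared regions, at the promoters of RhoGAPp190 (chrX:17651885-17652085) and toc (chr2L:3095024-3095224).
RhoGAPp190 promoter: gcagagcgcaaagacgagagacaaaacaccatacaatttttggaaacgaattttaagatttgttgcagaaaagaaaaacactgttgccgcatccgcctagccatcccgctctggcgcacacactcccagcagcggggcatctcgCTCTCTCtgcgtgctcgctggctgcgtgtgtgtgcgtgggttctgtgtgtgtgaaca
toc promoter: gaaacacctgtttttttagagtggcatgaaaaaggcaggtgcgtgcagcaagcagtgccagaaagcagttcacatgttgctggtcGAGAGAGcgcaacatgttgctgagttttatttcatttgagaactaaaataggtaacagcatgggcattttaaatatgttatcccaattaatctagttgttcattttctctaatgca

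The Tet region had 771 and 445 bases under peaks in the mutants and 0 and 0 in the 2 to 3 h wild type, and 0 and 213 in the early dPCIF1 controls. The vnd region had 0 and 0 bases in the mutants against 690 and 661 in the 2 to 3 h wild type, and the early dPCIF1 controls held 572 and 603. The toc region had 368 and 766 bases in the mutants and 291 and 286 in the 2 to 3 h wild type, and 0 in each of the 4 early wild-type libraries. These 3 cases show the patterns counted further on: a peak in the mutants and none at 2 to 3 h, a peak in wild type of both stages and none in the mutants, or a peak in the mutants and at 2 to 3 h with none in early wild type.

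The files list positions only, with no read counts, so the depth of the libraries is unknown and a missing peak is a peak not called. The mutants had 9774 and 11347 peaks and the 2 to 3 h wild type 11432 and 9998 (mean 10560.5 ± 1112 against 10715 ± 1014, SD, n = 2 each; log2 ratio -0.02, exact permutation test, two-sided, p = 0.67). Peaks covered 4223 and 4915 kb in the mutants against 5083 and 4462 kb. The early dPCIF1 controls had 7534 and 7814 peaks and the early HIRA controls 4707 and 5449. With 2 libraries against 2 the smallest p is 0.33, so that no comparison of libraries can pass 0.05. Of 17 measures compared per library, 13 did not overlap between the groups, each with p = 0.33 in the exact permutation test. The measures come from the same peak lists and are not independent, so that no result is read from this count. Some of the gaps were small, as for the median peak width, 375 and 374 bp in the mutants against 377 and 381 bp. The label embryo was checked against markers of differentiated cells: 14 of 16 (87.5%) had no promoter region in either group, among them nSyb of neurons and Mhc of muscle, where 63.5% of all genes had none. The neuronal gene elav had a shared one.

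Most accessible regions were common to both groups. Of the mutant regions 5031 (67.3%) were shared, 1109 (14.8%) were matched in 1 of the 2 to 3 h libraries and 1338 (17.9%, 95% Wilson interval 17.0 to 18.8%) were mutant-only. Of the 2 to 3 h regions 5007 (66.0%) were matched in both mutant libraries, and 1477 (19.5%, 18.6 to 20.4%) were 2-3 h-only. These intervals cover counting error only. No base of 1310 mutant-only and 1430 2-3 h-only regions was under a peak of the other group, and the remaining 28 and 47 were overlapped by less than the rule asks. The only-classes were narrower than the shared regions, with median widths of 397 bp (mutant-only), 421 bp (2-3 h-only) and 551 bp (shared).

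**Figure D1:**
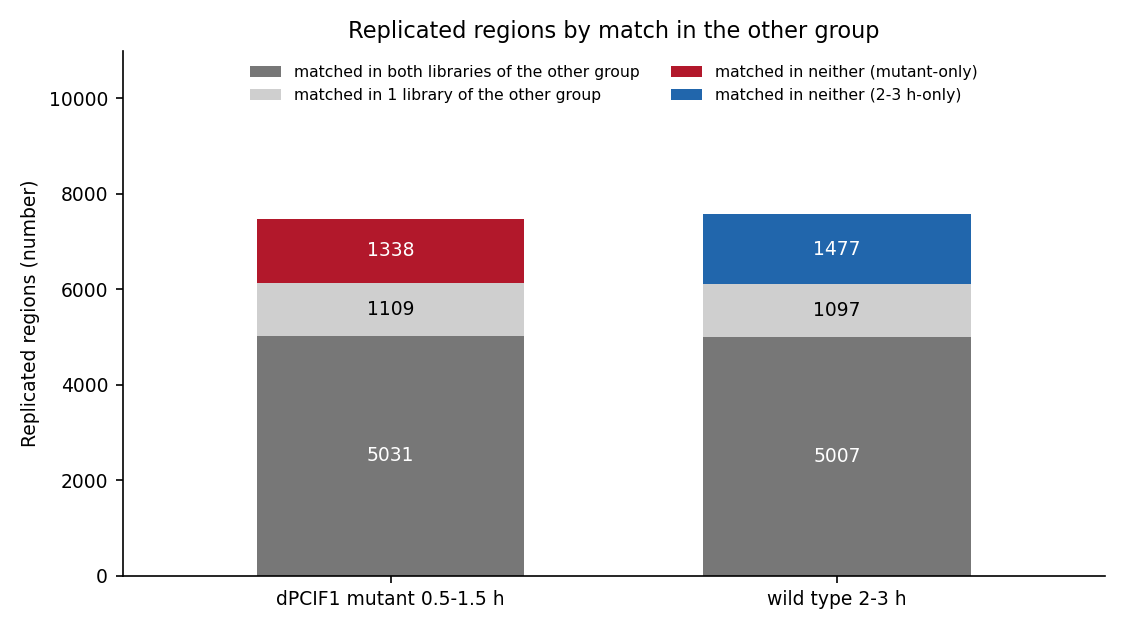
Number of replicated regions in the dPCIF1 mutants at 0.5 to 1.5 h (left) and the wild type at 2 to 3 h (right), split by whether both, 1 or neither library of the other group held a matching peak. Both bars have a shared part of about the same height, 5031 and 5007 regions, with 1338 mutant-only and 1477 2-3 h-only regions on top.

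Single libraries give a background by an unlike measure. These rates count all peaks of 1 library, replicated or not, against 1 other library. The shares above count replicated regions that neither library matched, so the levels cannot be set side by side. A mutant peak was missed by the other mutant replicate in 27.8% of cases on average (22.3 and 33.3%) and by a 2 to 3 h library in 38.4% (34.1 to 43.0%, 4 pairs). A 2 to 3 h peak was missed by its own replicate in 28% (23.2 and 32.8%) and by a mutant library in 39.7% (35.6 to 44.0%). An early dPCIF1 control library missed 49.0% of mutant peaks (45.9 to 52.0%), and an early HIRA control library missed 64.0%. As a share of mutant peaks, the overlap was thus larger with the 2 to 3 h wild type than with either early wild type, which hold fewer peaks. Read from the other lists the order was the reverse. A mutant region matched 79.8% of early dPCIF1 control regions and 86.5% of early HIRA control regions, but 66.2% of 2 to 3 h regions. The classes need both replicates: when a mutant library was left out, all peaks of the other one counted, and the mutant-only share was 31.6% (without replicate 1) and 28.2% (without replicate 2). Without replicate 1 of the 2 to 3 h wild type it was 27.6%. The 2-3 h-only share was 30.2% and 32.8% without 2 to 3 h replicate 1 and replicate 2.

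The widest shared regions, ranked by the mean width of their mutant peaks, were over 1 kb wide in all 4 libraries. The region at Maf1, a repressor of RNA polymerase III, had 3422 and 3648 bases under peaks in the mutants and 3411 and 2888 at 2 to 3 h. The promoter of lncRNA:Hsromega, a non-coding RNA of the heat shock response, had 2194 and 2202 bases against 2179 and 2185. An intron next to CG15343 had 2134 and 2141 bases in the mutants and 2078 and 2088 at 2 to 3 h, and 2028 to 2076 in the 4 early wild-type libraries. Since the ranking used the mutant peaks, it favours regions that are wide in the mutants, and no difference is read from it. Of the nuclear regulator genes sbb and Adf1, sbb had 2159 and 2178 bases in the mutants against 1805 and 1639. Adf1 had 2107 and 2106 in the mutants against 1630 and 1829. The other 5 of the 10 widest lay at CG16753, asRNA:CR45366, KP78a, CR41519 and PRAS40.

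Shared regions lay at promoters most often, and the only-classes differed from each other in coding exons. With any base within 1 kb of a transcription start site (TSS) were 620 of 1338 mutant-only regions (46.3%, 43.7 to 49.0%), 576 of 1477 2-3 h-only regions (39.0%, 36.5 to 41.5%) and 3163 of 5031 shared regions (62.9%, 61.5 to 64.2%). The same regions moved by 10 kb met the rule in 31.1% (mutant-only), 33.7% (2-3 h-only) and 33.5% (shared). Coding exons held 7.17% of the mutant-only and 18.1% of the 2-3 h-only regions, against 11.2% and 12.8% after the move, so that 2-3 h-only regions were above and mutant-only regions below their background. Introns held 26.1% and 26.4%, and intergenic DNA 18.3% of mutant-only and 13.7% of 2-3 h-only regions. Over all peaks, coding exons held 9.12 and 10.5% in the mutant libraries against 13.6 and 12% in the 2 to 3 h libraries (no overlap, exact permutation p = 0.33), and promoters 54.6 and 52.6% against 50.7 and 53.2% (overlapping, exact permutation p = 0.67). The promoter difference between the only-classes, 7.34 percentage points, was 0.92 without mutant replicate 1, 1.01 without mutant replicate 2 and 12.2 without replicate 2 of the 2 to 3 h wild type.

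**Figure D2:**
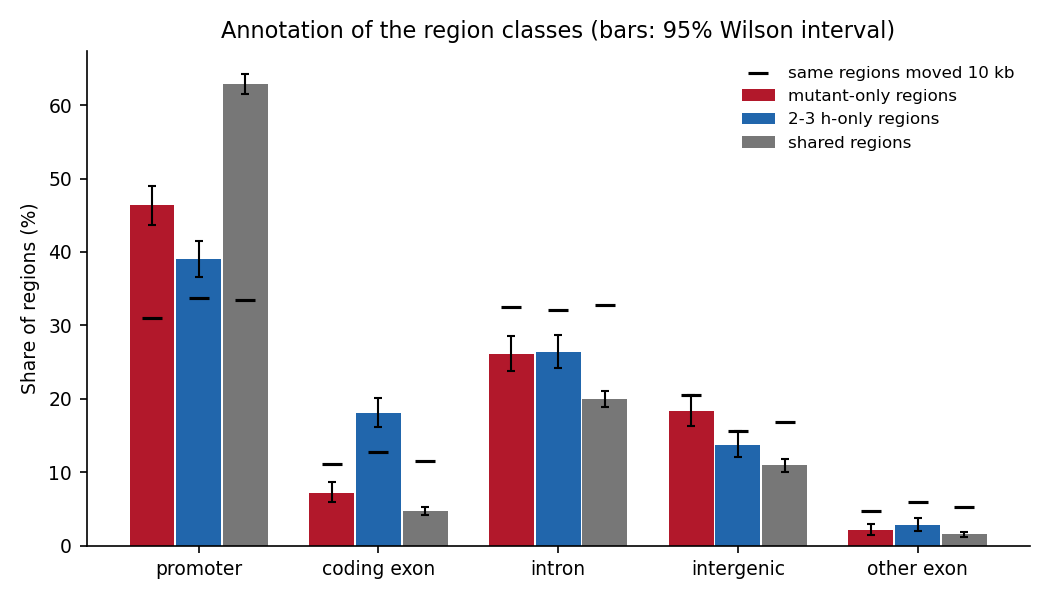
Share of mutant-only, 2-3 h-only and shared regions in each annotation class, in percent, with 95% Wilson intervals as bars and the same regions moved by 10 kb as black dashes. The 2-3 h-only regions stand out in coding exons (18.1% against 7.17% of mutant-only regions), and shared regions at promoters (62.9%).

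The motifs of the pioneer factors GAF and Zelda were distributed in opposite ways. The GAF motif GAGAGAG lay within 100 bp of the midpoint, on either strand, in 147 mutant-only regions (11%, 9.42 to 12.8%), 67 2-3 h-only regions (4.54%, 3.59 to 5.72%) and 671 shared regions (13.3%). Windows moved by 1 kb held it in 2.80%, 2.13% and 2.94%, in the same order of classes. The Zelda motif CAGGTAG lay in 32 mutant-only regions (2.39%, 1.70 to 3.36%), 110 2-3 h-only regions (7.45%, 6.22 to 8.90%) and 303 shared regions (6.02%), against 1.05%, 1.52% and 1.55% in the moved windows. At promoters GAF was in 12.9% of mutant-only and 5.38% of 2-3 h-only regions, and elsewhere in 9.33% and 4.00% of them. Zelda was in 2.74% of mutant-only and 4.51% of 2-3 h-only promoter regions, and elsewhere in 2.09% and 9.32%. A motif match is a description of the sequence, not evidence of binding.

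Per library the same order held with smaller differences. GAF was in 10.6 and 9.91% of mutant peaks and 8.46 and 8.72% of 2 to 3 h peaks. Zelda was in 4.26 and 4.21% of mutant peaks and 5.37 and 5.61% of 2 to 3 h peaks. Neither motif's groups overlapped (exact permutation p = 0.33 each, 0.375 after Benjamini-Hochberg adjustment over 9 motifs). The early dPCIF1 controls, with shorter peak lists, had more of both, with Zelda in 8.08 and 7.79% and GAF in 11.7% of peaks in each library. Between the only-classes the GAF difference of 6.45 percentage points was 2.99 and 2.37 without mutant replicate 1 and replicate 2. The Zelda difference of -5.06 points was -2.98 and -3.0 without 2 to 3 h replicate 1 and replicate 2.

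The other motifs differed between the only-classes by fewer percentage points. TATCGAT, bound by DREF at promoters of proliferation genes, was in 4.19% of mutant-only, 2.84% of 2-3 h-only and 4.61% of shared regions. GGTCACACT of the promoter factor M1BP was in 0.67%, 0.34% and 1.63%. CACATGT, an E-box of Twist and Snail, was in 4.78% of mutant-only (3.76 to 6.06%) and 2.71% of 2-3 h-only regions (2.00 to 3.67%). CCCGCTG of Opa was in 2.39% and 2.51% of them, AACCGGTT of Grainyhead in 0.45% and 0.20%, and TTTATGG of Caudal in 3.21% and 4.94%. The comparison repeat CACACACA was in 10.5% of mutant-only, 8.33% of 2-3 h-only and 14.3% of shared regions, against 4.22%, 4.03% and 4.82% in the moved windows, so that this repeat too was more frequent than in its moved windows.

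**Figure D3:**
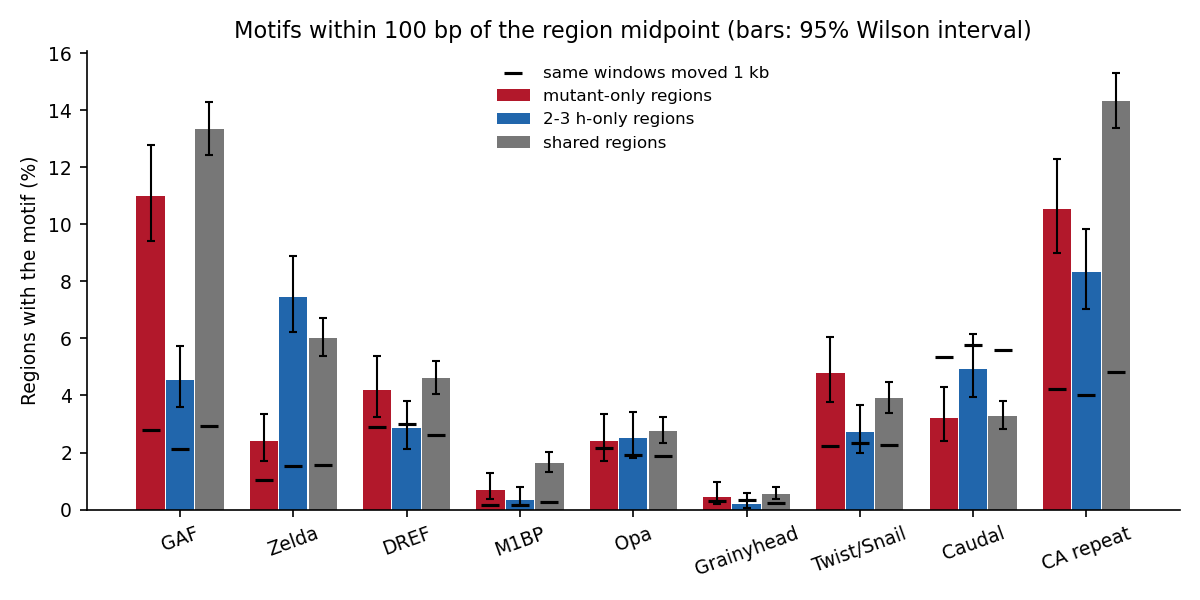
Share of regions of each class with a motif within 100 bp of the midpoint, in percent, with 95% Wilson intervals and the same windows moved by 1 kb as black dashes. GAF is more frequent in mutant-only than in 2-3 h-only regions (11% and 4.54%) and Zelda less frequent (2.39% and 7.45%).

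Whether a class was already open in early wild-type embryos was read from 4 libraries that did not define it. Of the shared regions 2398 (47.7%) were matched in all 4 early wild-type libraries, and 71.9% in both early dPCIF1 controls. Of the mutant-only regions 783 (58.5%, 55.9 to 61.1%) were in no early wild-type library and 184 (13.8%) in both early dPCIF1 controls. Of the 2-3 h-only regions 684 (46.3%, 43.8 to 48.9%) were in no early wild-type library and 192 (13%) in both early dPCIF1 controls. The order of the shares in no early wild-type library rests on both 2 to 3 h replicates: it turned round when either was left out, with 49.5% of mutant-only against 63.4% of 2-3 h-only regions without replicate 1 and 53.9% against 66.3% without replicate 2. The 2 sets of early wild type differed in what they held: a single early dPCIF1 control matched 26.3 or 25.8% of mutant-only regions and a single early HIRA control 3.36 or 4.04%, whereas 2-3 h-only regions were matched by 21.3 and 22.4% in the dPCIF1 set and 21.3 and 27.3% in the HIRA set. The wild-type set therefore moves with the class, since the 2 to 3 h wild type belongs to the HIRA set. The part of the wild-type set in the result was not tested. The HIRA mutant libraries of 2 to 3 h matched 32.8 and 17.7% of mutant-only regions, and 48.7 and 30.5% of 2-3 h-only regions. Many mutant-only regions were thus also called in HIRA mutants of the later stage.

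**Figure D4:**
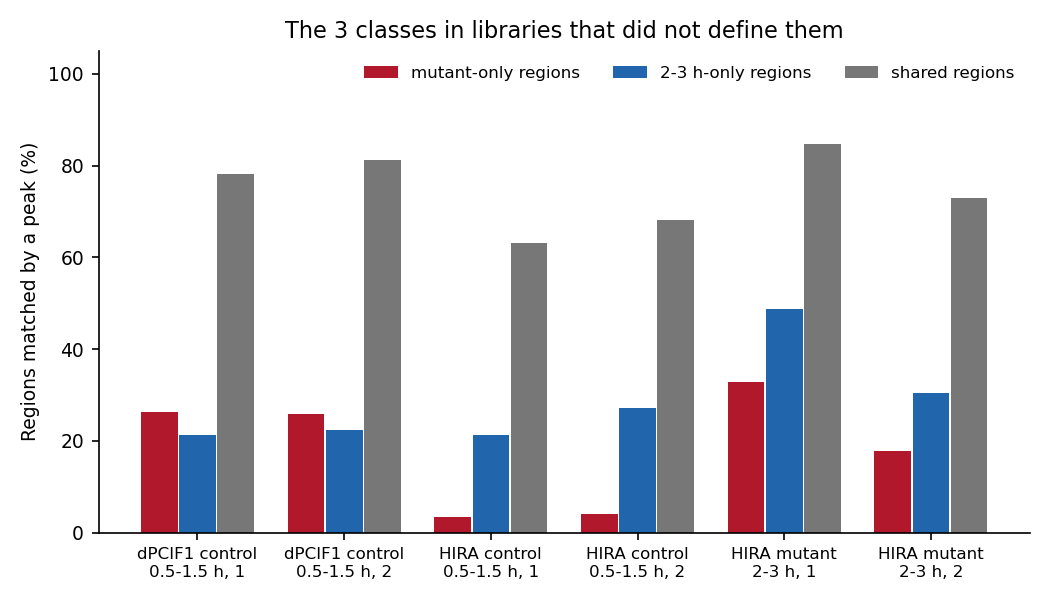
Share of mutant-only, 2-3 h-only and shared regions matched by a peak of each of 6 libraries that did not define the classes, in percent (the 2 early dPCIF1 controls, the 2 early HIRA controls and the 2 HIRA mutants of 2 to 3 h). Mutant-only regions are matched by 26.3 and 25.8% in the early dPCIF1 controls and by 3.36 and 4.04% in the early HIRA controls. In the HIRA mutants of 2 to 3 h the values are 32.8 and 17.7%.

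The 192 2-3 h-only regions that both early dPCIF1 controls also held carried the Zelda motif more often than the class as a whole. It was in 37 of them (19.3%, 14.3 to 25.4%), against 7.45% of the class. Of the 2-3 h-only regions in 1 or more early wild-type libraries 10.2% had the Zelda motif, as did 8.87% of all early dPCIF1 control regions. The GAF motif was in 6 of the 192 (3.12%, 1.44 to 6.65%). These 192 regions were thus matched in wild type of both stages and in neither mutant library. The 184 mutant-only regions in both early dPCIF1 controls had the Zelda motif in 9 (4.89%, 2.59 to 9.03%) and the GAF motif in 23 (12.5%, 8.48 to 18.1%), against 2.39% and 11% of the mutant-only class. The 783 mutant-only regions in no early wild-type library had the GAF motif in 80 (10.2%, 8.29 to 12.5%) and the Zelda motif in 16 (2.04%), close to the whole class. The 684 2-3 h-only regions in no early wild-type library had the Zelda motif in 29 (4.24%) and the GAF motif in 25 (3.65%).

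A set of 328 shared regions (6.52% of the shared ones) was matched in no early wild-type library by the 20% rule. Of these 204 lay at promoters (62.2%, 56.8 to 67.3%), where 62.9% of all shared regions did. The GAF motif was in 28 (8.54%), against 13.3% of all shared regions, and the Zelda motif in 5 (1.52%), against 6.02%. The M1BP motif was in 10 (3.05%, 1.66 to 5.52%), against 1.63%. All 10 were at promoters, as were 79 of the 82 M1BP matches in all shared regions. The widest by their mutant peaks were at Cyt-c-p, which encodes cytochrome c, with 895 and 1033 bases in the mutants and 539 and 573 at 2 to 3 h, and RpS7, a ribosomal protein gene, with 1083 and 813 against 581 and 474. The early HIRA controls overlapped these regions by less than the rule asks, with 200 and 0 bases at Cyt-c-p and 0 and 232 at RpS7. Next came Sdb, lncRNA:CR43622, Rab8, rogdi, Jon99Fii, lncRNA:CR44853, Tao and spdo, where the early dPCIF1 controls had 0 and 173 bases at spdo. At Sdb the mutants had 790 and 994 bases and the 2 to 3 h wild type 992 and 599. Here too the mutant widths chose the regions, so that their width in the mutants is no finding.

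Of the 10 widest mutant-only regions 7 were at promoters, and none had a base under a 2 to 3 h peak. Rab5, a GTPase of early endosomes (chr2L:2364053-2365056), had 983 and 864 bases under peaks in the mutants and 0 and 0 at 2 to 3 h. Rrp46, a subunit of the RNA exosome (chr3R:10412736-10413657), had 897 and 922 bases against 0 and 0. RpS30, a ribosomal protein gene (chr3R:20850380-20851245), had 866 and 816 against 0 and 0. The early dPCIF1 controls had narrower peaks at these 3 or none, with 0 and 357 bases at Rab5, 272 and 423 at Rrp46 and 250 and 207 at RpS30. The region nearest gus, 13337 bp from its TSS and between genes, had 1622 and 1635 bases in the mutants and 0 in all other libraries read. The promoter of the neuropeptide gene amn, with the GAF motif, had 965 and 832 bases against 0 and 0. The other regions of the widest 10 lay at CG9663, Glg1, CG34376, Marf1 and CG6527.

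Mutant-only regions were spread over many genes. Of the 1184 genes nearest to one, 1061 had 1 region, 101 had 2 and 22 had 3 or more. Tet had 7 mutant-only, 3 2-3 h-only and 4 shared regions. The scaffold gene bbg had 6 mutant-only and 0 2-3 h-only regions, Glut4EF 4 and 0, and tou, which encodes a chromatin regulator, 4 and 1. Antp, CG13481, CG43245, Fili, Gprk1 and Pdp1 had 3 mutant-only regions each. Of the 1314 genes nearest to a 2-3 h-only region 18 had 3 or more. Antp had 3 mutant-only and 5 2-3 h-only regions besides 11 shared ones, all in a long Hox locus. Sdc (syndecan), boi (a Hedgehog co-receptor) and lncRNA:bxd of the bithorax complex had 0 mutant-only and 4 2-3 h-only regions each, and pyd had 2 and 4. Ank, CG14506, CG1958, CG43163 and Cpsf160 had 3 2-3 h-only regions each.

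Of the 10 widest 2-3 h-only regions 8 were at promoters, and they differed in whether early wild type held them. At Nrt, which encodes the adhesion protein neurotactin (chr3L:16772941-16776182), the mutants had 386 and 541 bases under peaks against 3242 and 3128 at 2 to 3 h, and the early dPCIF1 controls had 2322 and 2122. At kuk, which encodes a nuclear envelope protein of cellularizing embryos (chr3R:17082186-17083969), the mutants had 0 and 206 bases against 1577 and 1285, with 1784 and 1437 in the early dPCIF1 controls. At the gap gene kni (chr3L:20692886-20694606) the mutants had 0 and 0 bases against 1240 and 1616, with 1066 and 839 in the early dPCIF1 controls and 0 and 0 in the early HIRA controls. At these 3 loci the 2 to 3 h wild type and the early dPCIF1 controls had wide peaks and the mutants narrow ones or none. Narrow mutant peaks lay inside the Nrt and kuk regions, so that these count as 2-3 h-only through the 20% rule, whereas no base of the kni region was called in a mutant. The others of the widest 10 were Svil, wech, CG12576, Su(z)12, mir-4956, Ack-like and bys, of which the early dPCIF1 controls had 0 and 0 bases at Ack-like and bys, 0 and 577 at Svil, 206 and 557 at wech, 458 and 0 at CG12576 and 286 and 110 at mir-4956. At Su(z)12, a subunit of Polycomb repressive complex 2, the mutants had 272 and 0 bases against 1187 and 1558, and the early dPCIF1 controls had 277 and 700.

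Most patterning genes had a shared region at the promoter. Of 17796 genes 4072 (22.9%) had a shared region within 1 kb of a TSS, 654 (3.67%) had a mutant-only and no 2 to 3 h region, and 565 (3.17%) a 2-3 h-only and no mutant region. These counts rest on both replicates: without mutant replicate 1 and replicate 2 the mutant-only genes numbered 1495 and 1168, and without 2 to 3 h replicate 1 and replicate 2 the 2-3 h-only genes numbered 1123 and 1329. Which of the 2 counts was larger turned round without either 2 to 3 h replicate, with 925 mutant-only against 1123 2-3 h-only genes without replicate 1 and 823 against 1329 without replicate 2. A shared promoter region was held by 8 of 8 Hox genes, 7 of 7 gap and terminal genes, 9 of 9 pair-rule genes, 11 of 11 segment polarity genes, 12 of 14 dorsal ectoderm genes, 10 of 10 mesoderm genes and 12 of 13 neurogenic ectoderm genes. By this rule none of the 7 lists had a gene with a mutant-only or a 2-3 h-only promoter. The rule asks only that a shared region reach into the window, and for gsb-n, of the segment polarity list, it does so at most at the edge: the promoter had 556 and 462 bases in the mutants against 0 and 45, and 0 in all 4 early wild-type libraries, and the region 225 bp from its TSS was mutant-only. For bap, of the mesoderm list, the mutants had 314 and 370 bases against 265 and 0.

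Among the Hox genes, which set segment identity, promoter peaks were of similar extent over the list (median log2 ratio, mutants over 2 to 3 h, 0.001). Single genes differed in both directions. Ubx had 498 and 502 bases under peaks in the mutants and 502 and 594 at 2 to 3 h, with 362 and 405 in the early dPCIF1 controls. Abd-B had 1173 and 1386 bases against 1161 and 843, with 994 and 870 in the early dPCIF1 controls. For lab the mutants had 1660 and 1129 bases and the 2 to 3 h wild type 1089 and 826, and for pb 811 and 790 against 754 and 694. At lab, pb and Abd-B (37.5% of the list) both mutant libraries were above both 2 to 3 h libraries, against 22.1% of all genes with promoter peaks. These 3 were also above both early dPCIF1 controls, against 18.4% of all. At Dfd and Scr (25%) both mutant libraries were below both 2 to 3 h libraries, against 19.3% of all. Scr also had a mutant-only region 86 bp from its TSS, with 231 and 260 bases against 0 and 0.

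Single regions near these genes did fall into the only-classes. Of the 72 genes of the 7 patterning lists 17 were nearest to 22 mutant-only regions and 26 to 36 2-3 h-only regions. These were 1.64% of all mutant-only and 2.44% of all 2-3 h-only regions, where 3.40% of shared regions were nearest to these genes. Over all 17796 genes, 1184 were nearest to a mutant-only and 1314 to a 2-3 h-only region. Of the 36, 15 (41.7%, 27.1 to 57.8%) were matched in both early dPCIF1 controls, against 13% of all 2-3 h-only regions. Of the 22 mutant-only ones 3 (13.6%) were, against 13.8% of all. The Zelda motif was in 7 of the 36 (19.4%) and 0 of the 22, against 7.45% of all 2-3 h-only and 2.39% of all mutant-only regions. The GAF motif was in 1 of the 36 (2.78%) and 5 of the 22 (22.7%), against 4.54% and 11%. The gap genes hb, Kr, kni and knrl and the pair-rule genes ftz, hry, run and opa each had a 2-3 h-only region, as did twi, sna and T48 of the mesoderm. The region 1648 bp from the TSS of sna (chr2L:15479635-15480180), with the Zelda motif, had 0 and 0 bases in the mutants against 546 and 433, and 480 and 389 in the early dPCIF1 controls. Both kinds occurred at hb, and also at lab, Antp, en, wg, hh, nkd and Doc2, of which wg had 1 mutant-only and 3 2-3 h-only regions. At hb a promoter region with the GAF motif (chr3R:8697758-8698247) had 441 and 466 bases in the mutants against 0 and 0, and none in early wild type. An intergenic one (chr3R:8700471-8701514) had 0 and 200 bases in the mutants against 1032 and 1039, and 404 and 615 in the early dPCIF1 controls. Other patterning genes with a mutant-only region were lab, Scr and Antp of the Hox list, en, wg, hh, gsb-n and nkd of the segment polarity list, and gt, slp2, Doc2, pnr, peb, htl, bap and ase.

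The 7 early zygotic genes on the cellularization list had fewer promoter bases under peaks in the mutants than at 2 to 3 h. Nullo, Sry-alpha, bnk and slam act in the membrane furrows that form cells, halo in lipid droplet transport, Z600 in the stop of nuclear divisions, and sisA in counting X chromosomes. All 7 are given, a choice made after their values were seen. Summed over the list, the mutants had 4.04 and 5.69 kb of promoter under peaks against 7.99 and 8.33 kb at 2 to 3 h. The early dPCIF1 controls had 8.27 and 8.94 kb and the early HIRA controls, whose peak lists are shorter, 6.21 and 7.12 kb. The mutant libraries were thus below all 6 wild-type libraries.

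Sry-alpha had 207 and 442 bases in the mutants against 1537 and 1517 at 2 to 3 h, and nullo 0 and 551 against 662 and 1043. Z600 had 0 and 611 bases against 791 and 725, and sisA 971 and 923 against 1301 and 1303. For slam the mutants had 843 and 1175 bases against 1319 and 1318, for halo 811 and 800 against 1065 and 1055, and for bnk 1210 and 1192 against 1312 and 1368. In all 7 genes both mutant libraries were below both 2 to 3 h libraries and both early dPCIF1 controls. Among the 9209 genes with any promoter base under a peak in the 4 compared libraries, 1778 (19.3%) were below the 2 to 3 h libraries in this way and 273 (2.96%) were also below the early dPCIF1 controls. With equal numbers of the widest peaks from each library, 7 genes were again below the 2 to 3 h libraries.

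**Figure D5:**
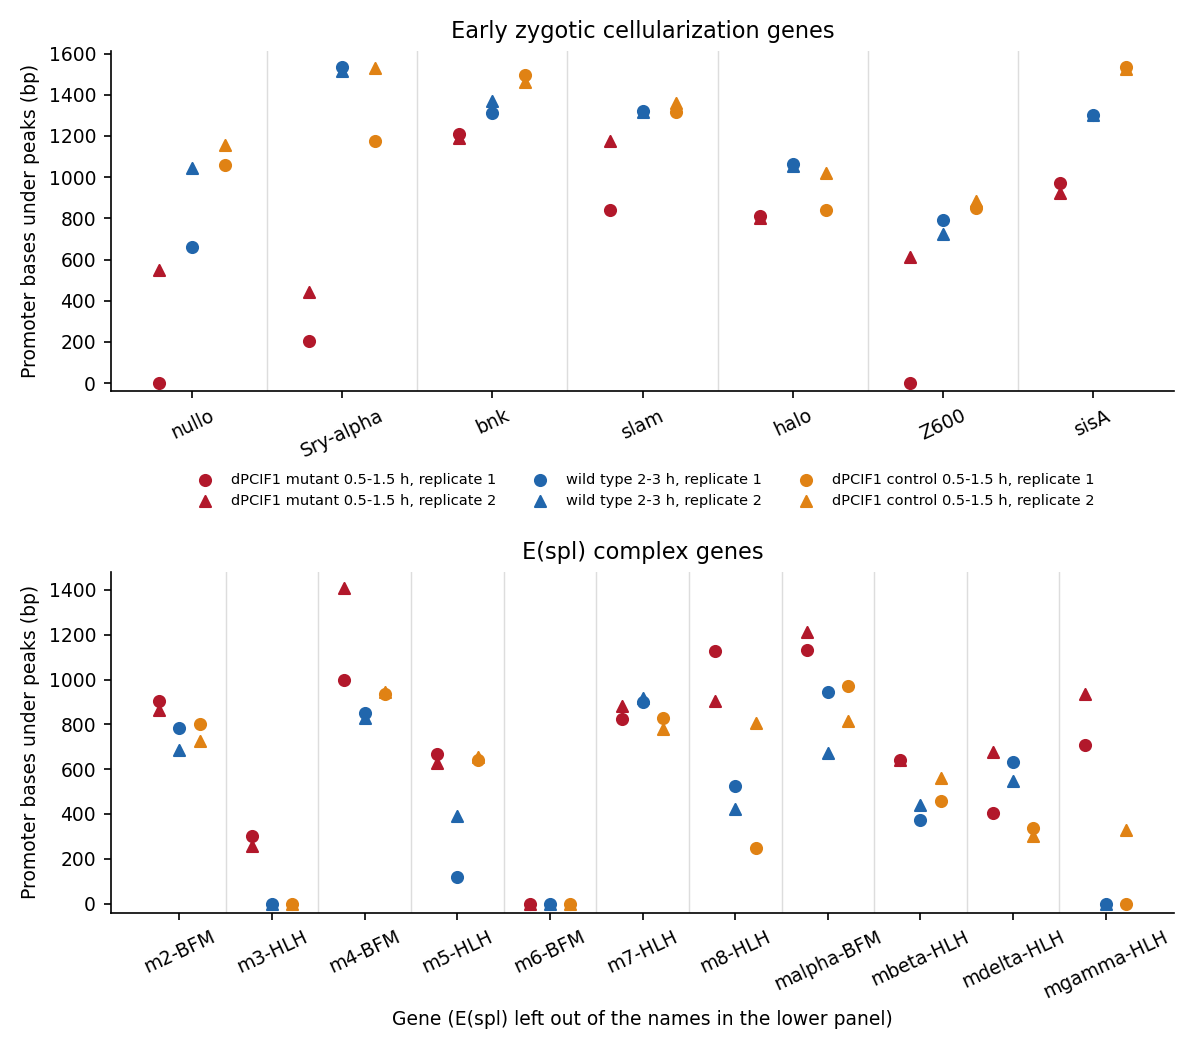
Bases under peaks within 1 kb of a TSS, in bp, for each gene of the cellularization list (top) and the E(spl) complex (bottom), with 1 point per library (circle and triangle for replicates 1 and 2) of the dPCIF1 mutants, the 2 to 3 h wild type and the early dPCIF1 controls. For Sry-alpha the mutants sit at 207 and 442 and both wild types above 1100, while for E(spl)mgamma-HLH the mutants sit at 708 and 936 and the 2 to 3 h wild type at 0.

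The promoters of this list carried the Zelda motif often. Within 250 bases upstream of the 5′-most TSS, CAGGTAG lay on either strand in 4 of the 7 genes, against 261 of 17796 genes (1.47%), and GAGAGAG in 0 of 7, against 5.03% of all genes. The upstream stretches of the 4 are shown 5′ to 3′ on the strand of the gene, with the motif or its reverse complement in capitals, since they are the sequences beside these peaks. They lie at chr3R:31193112-31193361 (bnk), chr2L:1518149-1518398 (halo), chr3L:15508811-15509060 (Z600) and chrX:11322358-11322607 (sisA), with halo and sisA on the minus strand, and hold 3 (bnk), 2 (halo), 2 (Z600) and 3 (sisA) matches.
bnk upstream: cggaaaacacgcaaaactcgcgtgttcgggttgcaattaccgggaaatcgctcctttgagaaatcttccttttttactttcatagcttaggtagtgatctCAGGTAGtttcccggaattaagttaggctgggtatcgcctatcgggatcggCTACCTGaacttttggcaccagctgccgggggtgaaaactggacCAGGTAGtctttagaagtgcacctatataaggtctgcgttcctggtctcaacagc
halo upstream: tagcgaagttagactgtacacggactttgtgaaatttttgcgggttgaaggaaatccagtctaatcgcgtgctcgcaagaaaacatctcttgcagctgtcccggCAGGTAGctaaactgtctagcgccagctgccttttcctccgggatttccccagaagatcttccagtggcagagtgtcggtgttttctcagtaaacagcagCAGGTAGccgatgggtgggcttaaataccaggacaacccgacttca
Z600 upstream: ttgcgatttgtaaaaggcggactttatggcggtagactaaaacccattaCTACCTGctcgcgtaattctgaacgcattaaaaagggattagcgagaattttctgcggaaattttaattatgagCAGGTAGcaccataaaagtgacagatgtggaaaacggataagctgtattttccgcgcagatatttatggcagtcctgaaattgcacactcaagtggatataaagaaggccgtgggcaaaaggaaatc
sisA upstream: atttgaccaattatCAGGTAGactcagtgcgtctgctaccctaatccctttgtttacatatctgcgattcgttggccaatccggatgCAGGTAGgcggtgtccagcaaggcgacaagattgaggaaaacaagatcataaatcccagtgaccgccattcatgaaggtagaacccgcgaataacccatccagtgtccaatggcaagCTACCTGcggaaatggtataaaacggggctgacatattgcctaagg
No match in nullo, slam or Sry-alpha says only that these letters are not in this window.

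The E(spl) complex showed the opposite order. Its genes are targets of Notch, and encode bHLH repressors and Bearded-family proteins. Their promoters had 7.71 and 8.41 kb under peaks in the mutants against 5.13 and 4.90 kb at 2 to 3 h, with 5.22 and 5.92 kb in the early dPCIF1 controls. E(spl)mgamma-HLH had 708 and 936 bases in the mutants and 0 and 0 at 2 to 3 h, and E(spl)m3-HLH 300 and 258 against 0 and 0. E(spl)m8-HLH had 1127 and 905 bases against 525 and 420, and E(spl)m2-BFM 903 and 863 against 784 and 687. Of 10 genes of the complex with a promoter base under a peak, 8 had both mutant libraries above both 2 to 3 h libraries, where 22.1% of all covered genes did, and 7 were also above both early dPCIF1 controls, where 18.4% of all did. E(spl)m7-HLH was the 1 gene in the opposite order, with 824 and 884 bases against 900 and 918. The genes lie side by side and some share a peak, so that they are not independent. The choice of these genes for display was made after their values were seen.

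Transfer RNA genes made up a further group with mutant-only regions. Of 295 tRNA genes, 54 (18.3%) had a mutant-only promoter and 7 (2.37%) a 2-3 h-only one, against 3.67% and 3.17% of all genes. A peak lay on the gene itself for 103 and 113 of the 295 in the mutants against 48 and 55 at 2 to 3 h. Both mutant libraries and neither 2 to 3 h library had a peak on 39 tRNA genes, and 2 had the opposite. The genes tRNA:Ala-AGC-2-2 and tRNA:Ala-AGC-2-3 had 327 and 596 promoter bases in the mutants and 0 and 0 at 2 to 3 h, with 458 and 563 in the early dPCIF1 controls, and tRNA:Arg-ACG-1-6 had 306 and 449 against 0 and 0. The same neighbouring genes often shared a region: 23 mutant-only, 3 2-3 h-only and 27 shared regions lay on a tRNA gene, which is 1.72%, 0.203% and 0.537% of their classes. Here too the wild-type set moved with the result, since 91 and 90 tRNA genes had a peak in the early dPCIF1 controls and 17 and 15 in the early HIRA controls. Its part was not tested. tRNA genes have near-identical copies, and reads that map to several of them were removed before peaks were called, so the values of single copies are uncertain.

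In 3 further lists the shares with an only-promoter lay near those of all genes, which were 3.67% (mutant-only) and 3.17% (2-3 h-only) beside 22.9% shared. Of 92 cytosolic ribosomal protein genes 38 (41.3%) had a shared promoter region, 5 (5.43%) a mutant-only one, among them RpL32 and RpS30, and 1 (1.09%), RpS6, a 2-3 h-only one. RpL32 had 587 and 417 bases in the mutants against 0 and 0, and RpS30 866 and 816 against 249 and 0 over its whole promoter window. RpL11 also counts as mutant-only by its replicated regions, but had 227 and 224 bases in the mutants against 331 and 390, more at 2 to 3 h. RpS6 had 236 and 0 bases in the mutants against 1340 and 751. Of 48 proteasome genes 12 (25%) had a shared, 2 (4.17%) a mutant-only (Prosalpha4T1 and Rpt5) and 2 a 2-3 h-only promoter (Prosalpha4 and Rpn7). Of 119 odorant and gustatory receptor genes, which serve adult sensory neurons, 11 (9.24%) had a shared, 5 (4.2%) a mutant-only (Or42b, Gr22a, Gr57a, Gr58a and Gr58b) and 3 (2.52%) a 2-3 h-only promoter (Or45b, Or83a and Gr93a).

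The genes on the list of H3.3 and histone chaperones were divided between the classes. His3.3A, an H3.3 gene, had 0 and 0 promoter bases in the mutants against 476 and 201 at 2 to 3 h, with 403 and 528 in the early dPCIF1 controls. By contrast yem, whose product works with HIRA in the male pronucleus, had 230 and 297 bases against 0 and 0, and Caf1-55, a subunit of several chromatin complexes, 216 and 311 against 0 and 0. Of the 10 genes 2 (20%) had a mutant-only and 1 (10%) a 2-3 h-only promoter, against 3.67% and 3.17% of all genes. A shared promoter region was held by 5 (50%, against 22.9% of all genes), among them His3.3B, asf1 and dlp. In the fly annotation dlp is the proteoglycan gene dally-like and not a chaperone, but it is counted among these 10 and 5 genes. His3.3B, also an H3.3 gene, had a 2-3 h-only region as well, 613 bp from its TSS. This region had 0 and 0 bases in the mutants against 306 and 372, and 0 in the early wild-type libraries. The promoter of Hira had 0 and 201 bases in the mutants and 397 and 0 at 2 to 3 h, with no region in either group. Among genes of the nuclear division cycle 7 of 12 (58.3%) were shared, and 1 (8.33%), twe (a cdc25 phosphatase), was 2-3 h-only, with 0 and 0 bases against 480 and 0. The twe region, with its midpoint 1217 bp from the TSS, had 480 and 507 bases at 2 to 3 h. Only the peak of replicate 1 reached into the promoter window. Of 10 heat shock genes Hsp22 had 225 and 390 bases in the mutants against 0 and 0, and Hsp27 238 and 270 against 0 and 0, while Hsp23, Hsp67Ba and DnaJ-1 (30% of the list) had shared regions. Among pioneer and promoter-binding factors, zld, Trl (the gene of GAF), Clamp and opa had shared promoters. For zld the mutants had 359 and 399 bases against 766 and 602, and the early dPCIF1 controls 342 and 344, so that the mutants were near wild type of their own stage. Besides its shared region zld had a 2-3 h-only one, 155 bp from its TSS. That region had 0 and 0 bases in the mutants against 383 and 241, and 0 in the early wild-type libraries. For Trl the mutants had 843 and 851 against 1011 and 921, with 768 and 762 in the early dPCIF1 controls.

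The promoter of dPCIF1 itself, Pcif1 in the annotation, had 462 and 451 bases under peaks in the mutants and 524 and 530 at 2 to 3 h, with 512 and 506 in the early dPCIF1 controls. The position of the lesion is not in the files, so that a peak here does not check the genotype.

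Chromosome X held fewer mutant-only regions. It carried 114 of 1338 mutant-only regions (8.52%, 7.14 to 10.1%), 266 of 1477 2-3 h-only regions (18.0%, 16.1 to 20.1%) and 718 shared regions (14.3%), where its share of the bases is 17.1%. Per library X held 11.8 and 11.5% of mutant peaks against 14.5 and 14.4% of 2 to 3 h peaks (exact permutation p = 0.33). The early dPCIF1 controls had 12.2% each and the early HIRA controls 19.4 and 18.2%, so that the wild-type set moved with this share as well, and its part was not tested. On X 12% of mutant regions were mutant-only and 23.3% of 2 to 3 h regions 2-3 h-only, against 18.7% and 18.8% on the autosome arms. On the autosome arms alone the GAF and Zelda differences between the only-classes were 6.03 and -5.39 percentage points, close to the values over all chromosomes.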

How the data were processed

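Per the labels and the study's methods, the authors trimmed paired ATAC-seq reads with Trimmomatic 0.39, mapped them to dm6 with Bowtie2 2.2.5, marked duplicates, kept well-mapped unique reads (SAMtools 1.18) and called peaks per library with MACS2 2.2.7.1. How the transposase offset was handled is not given in the sources used here. The deposited files hold 3 columns per peak (chromosome, start, end) and no score or count. Peaks were at least 200 bp wide.

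Regions, classes and annotation were computed with python 3.11.15, numpy 2.4.6, pandas 2.3.3 and scipy 1.17.1. A match needed 20% of both intervals. Annotation was first promoter (1 kb either side of any of 23694 start sites, Ensembl release 115), then the feature at the region's midpoint, since the files give no summit. Motifs were searched within 100 bp of the midpoint on both strands. Sequences came from RefSeq's Release 6. Between libraries, a two-sided exact permutation test was used, and regions, which are not replicates, by counts with 95% Wilson intervals. The functions were tested on planted regions and motifs. The replicates were separate samples of pooled embryos.

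The genes, lists and comparisons were chosen with earlier results of these data known. Named genes were the 10 widest regions of each class, the 10 genes nearest to most regions of each only-class, up to 4 members per list in list order, and the mutated gene. Further list members and regions named in the text were chosen after their values were seen. The 481 unnamed gene models were left out. Alternatives were other overlaps, equal numbers of peaks, a narrower promoter, other chromosomes, single libraries and pairing by replicate number. Not every member counted is reported here by name.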

Additional observations from a re-analysis of the deposited data

How the results depend on the processing

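Of the 123 values recomputed under 14 other settings, 60 stayed within the interval of the reported value (counts within 1.5 times), 59 moved and 4 reversed direction. The reversals came from 2 differences between the only-classes (mutant-only minus 2-3 h-only), added after seeing the data, when a 2 to 3 h library was left out: the share in no early wild-type library, 12.2 percentage points as reported, was -13.9 without replicate 1 and -12.3 without replicate 2, and the number of genes with an only-promoter, 89 as reported, was -198 and -506. With an overlap of 50% of both peaks, 56.7% of mutant regions were shared, 24.2% were mutant-only and 26.1% of 2 to 3 h regions were 2-3 h-only, and 61.5% of the mutant-only and 50.4% of the 2-3 h-only ones were in no early wild-type library. With the 9774 widest peaks of each library the last pair were 53.9% and 42.3%. With a 250 bp promoter 312 genes had a 2-3 h-only promoter, 151 fewer than had a mutant-only one. With the motif anywhere in the region the Zelda difference (mutant-only minus 2-3 h-only) was -9.31 percentage points. On chromosome X 75.7% of mutant regions were shared, 12% were mutant-only and 23.3% of 2 to 3 h regions 2-3 h-only, with differences of 12.7 points for promoters, 13.9 for GAF and -3.38 for Zelda, and on the autosome arms 66.1% were shared. With the early dPCIF1 controls in place of the 2 to 3 h wild type, 54.5% of mutant regions were shared and 25.9% mutant-only, and 10.2% of the control regions were unmatched. Without 1 library, the shared share ranged from 50.95 to 76.95%, the mutant-only share from 23.1 to 31.6%, the 2-3 h-only share from 24.3 to 32.8%, the promoter difference from 0.92 to 12.2 points, the GAF difference from 2.37 to 6.83, the Zelda difference from -5.25 to -2.98, the share in no early wild-type library from 49.5 to 70.9% (mutant-only) and 40.8 to 66.3% (2-3 h-only), and the genes from 823 to 1495 (mutant-only) and 636 to 1329 (2-3 h-only). The 2 differences named first ranged from -13.9 to 29.1 points and from -506 to 859 genes. A lone library's peaks are all counted as regions there, which by itself enlarges its only-class. The causes of the other moves were not tested. In the replicate block, in which libraries of the same number were compared, 61.5% were shared, 38.5% mutant-only and 39.8% 2-3 h-only, with differences of 4.08 (promoters), 3.50 (GAF) and -3.11 points (Zelda). Libraries of the same number did not deviate together (Pearson's r = -0.01 across 15059 regions, which are not independent). This rests on 1 difference between replicates per group, so it cannot decide whether the number marks a pairing. The depth of the libraries is unknown, so a region may be missing from a list through depth alone.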
